A study of Homo sapiens with 8 samples.

Results

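The differentiated V71 line was compared with the differentiated PLKO line, on 4 of the 8 arrays of the series, 2 arrays of each line. The members are all genes measured in that comparison: 19310 of the 28869 rows of the value table carry exactly 1 gene, and they represent 18377 genes. Both lines derive from SHSY5Y, a line grown from a neuroblastoma, a tumour of the neural crest lineage, were infected with a puromycin-resistance vector and selected as stable lines, and were grown on laminin. For differentiation (DF) they received 10 µM retinoic acid for 5 days and then 2 nM BDNF in medium without serum for 3 days. The other 4 arrays hold the same lines in growth medium (NDF), and the question is which genes part the lines once they have differentiated, and which of these differences were not yet there in NDF.

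The treatment label reads shRNA for the arrays with PLKO in their titles and control for those with V71. The methods of the study name pLKO.1-Puro, without an insert, as the control vector, which runs the other way. The target of the shRNA is among the genes not analysed here and thus gave no check of the labels, of which none was changed. The lines are called by their title codes and every difference is V71 minus PLKO, on the log2 scale of the deposited RMA values. Each line is a single stable culture, so the difference between the shRNA and any other difference between both lines cannot be told apart. The DF arrays are biological replicates numbered 1 and 2 in each line, and their small number limits the precision of every value.

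SHSY5Y cells are immature sympathetic neuroblasts, which divide in serum. Retinoic acid, a ligand of nuclear receptors, slows their division and sets off neurite growth, and BDNF, the ligand of the TrkB receptor, sustains the neuron-like state. A growing neurite reads its surroundings through guidance cues such as netrins, semaphorins and ephrins, through adhesion molecules of the immunoglobulin family and through the matrix, and passes the signal to the cytoskeleton.

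After differentiation, 563 of the 18377 genes (3.06%) were called between the lines, 332 higher in V71 (1.81%) and 231 lower (1.26%). Called means a fold of at least 1.5 together with an adjusted p under 0.05 by limma. Each count of called list members below is to be read against these shares of all genes. Among the called genes the median size of the difference was 0.78, a fold of at least 2 was reached by 152 and a fold of at least 4 by 12 higher and 10 lower genes. Over all genes the median difference was 0.0054. The V71 and PLKO arrays did not overlap for any of the 563, which the call makes likely, and they did not overlap for 45.7% of all genes. Where the order of the arrays is given below for called genes, it describes the values and is no further support for the call. In 19 of the called genes the mean of 1 line was below the lower quartile of its arrays (3.04 in PLKO, 3.02 in V71), where background may set the size of the difference. Spearman correlations across rows were 0.9947 between the PLKO arrays, 0.9952 between the V71 arrays and 0.9905 to 0.993 between the lines, and the medians of the 4 arrays lay between 4.6 and 4.68. RPS9, a ribosomal protein gene that the study used to normalize its qRT-PCR, stood at 9.35 and 9.39 in PLKO and 9.47 and 9.53 in V71, and was not called.

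**Figure D1:**
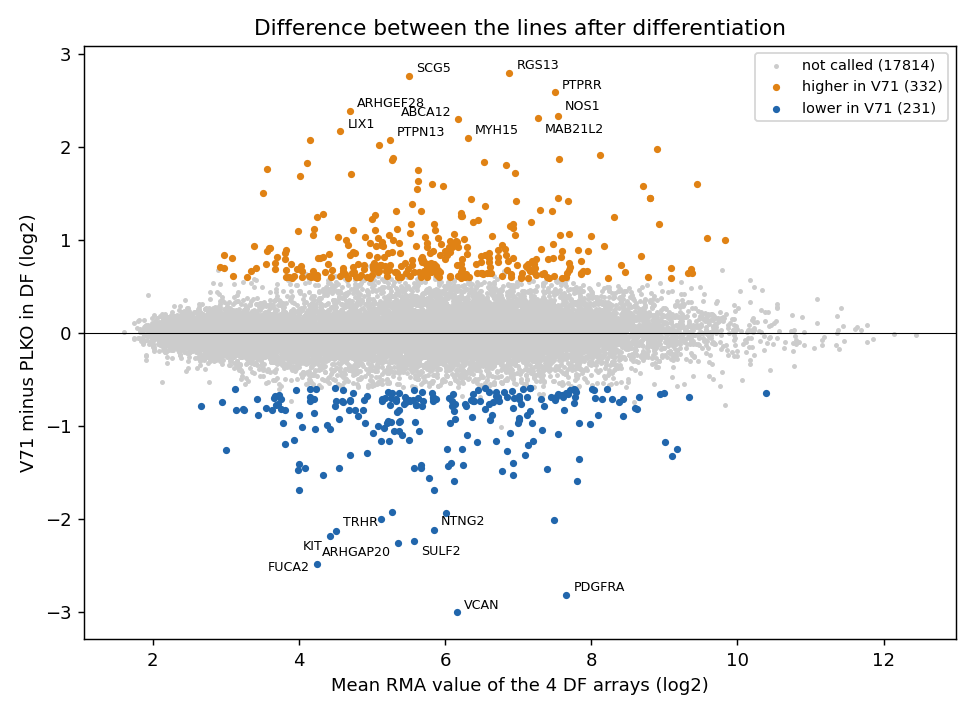
Difference between the lines in DF (V71 minus PLKO, log2, y axis) against the mean RMA value of the 4 DF arrays (log2, x axis) for the 18377 genes. Orange points are the 332 genes called higher in V71, blue points the 231 called lower and grey points those not called; VCAN and PDGFRA lie lowest, RGS13 and SCG5 highest.

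The differentiated cells carried the markers of sympathetic neuroblasts in both lines. Of 25 analysed noradrenergic markers none was below the lower quartile in both lines, and HAND2 (8.22 and 8.42 in PLKO, 8.76 and 8.76 in V71), GATA3 (8.62, 8.71, 9.05 and 9.02) and ISL1 (8.95, 9.13, 9.23 and 9.44), transcription factors of that lineage, were not called between the lines. TH, the first enzyme of catecholamine synthesis, stood at 4.6 and 4.27 in PLKO and 4.37 and 4.26 in V71. The list gave 3 calls higher in V71 (1.81% of all genes), CHGB, DLK1 and MYCN, and 1 lower (1.26%), DBH, the enzyme that makes noradrenaline. DBH stood at 8.75 in both PLKO arrays and at 7.99 and 8.03 in V71, a difference of -0.74 (SE 0.09, adjusted p = 0.00192). MYCN, the oncogene of neuroblastoma, stood at 5.67 and 5.60 in PLKO and at 6.60 and 6.53 in V71. In both genes the arrays of a line lay close together and far from those of the other line.

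Of 47 analysed markers of the mesenchymal, substrate-adherent (S-type) neuroblastoma cell, 4 were lower in V71 (1.26% of all genes), none was higher (1.81%) and 43 were not called. The 4 were PDGFRA, TNC, DCN and EGFR. In NDF 10 of the 47 were called lower in V71 (1.54% of all genes) and none higher. The difference in DF minus that in NDF was called for 6 of the 47, all above 0 (1.09% of all genes). The mean level of the list was 4.86 and 4.80 in the PLKO arrays and 4.69 and 4.61 in the V71 arrays, and 6 members were below the lower quartile in both lines. VIM, the intermediate filament of mesenchymal cells, stood at 3.25 and 3.17 in PLKO and 3.02 and 2.80 in V71, and was not called. These values lie near the lower quartiles (3.04 in PLKO, 3.02 in V71), where background limits the size of a difference. COL1A1, a collagen chain, stood at 5.32 and 5.12 against 5.13 and 5.08 and was not called. Of 16 Schwann cell and glial markers only L1CAM, which neurons also make, was called (3.06% of all genes). SOX10, the transcription factor of that lineage, was 4.53 and 4.50 in PLKO and 4.54 and 4.59 in V71. What part S-type cells take in the differences below was not tested. In bulk RNA, fewer cells of a type and less RNA per cell cannot be told apart.

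Genes of the G2 and M phases of the cell cycle were, of the 38 lists, the one with the largest share called. Of 47 analysed genes 31 were higher in V71 (against 1.81% of all genes), none was lower and 16 were not called, and the median difference of the list was 0.71. All 47 differences lay above 0, from 0.06 to 1.18. The highest were DLGAP5 and HMMR, spindle-associated proteins, KIF14, a kinesin of the midbody, and ASPM, a protein of the spindle poles. The stretches around their start sites are shown because late cell cycle genes are known to carry a cell cycle homology region (CHR) and CCAAT boxes there. Each stretch runs from 150 bases before to 30 bases after the start site, on the strand of the gene, in GRCh38.p14 (RefSeq). Capitals mark TTTGAA or TTTAAA, the letters of the CHR, and CCAAT, each on either strand, so that TTCAAA and ATTGG are reverse matches. The stretches are chr14:55191556-55191735 (minus strand) for DLGAP5, chr5:163460482-163460661 (plus) for HMMR, chr1:200620722-200620901 (minus) for KIF14 and chr1:197146640-197146819 (minus) for ASPM.
DLGAP5: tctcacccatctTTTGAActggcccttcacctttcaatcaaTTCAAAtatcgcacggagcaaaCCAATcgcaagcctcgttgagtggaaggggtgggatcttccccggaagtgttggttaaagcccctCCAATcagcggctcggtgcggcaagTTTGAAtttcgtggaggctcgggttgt
HMMR: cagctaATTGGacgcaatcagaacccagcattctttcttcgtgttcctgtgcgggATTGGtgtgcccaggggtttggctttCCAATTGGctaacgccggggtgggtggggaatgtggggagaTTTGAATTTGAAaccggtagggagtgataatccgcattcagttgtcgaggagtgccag
KIF14: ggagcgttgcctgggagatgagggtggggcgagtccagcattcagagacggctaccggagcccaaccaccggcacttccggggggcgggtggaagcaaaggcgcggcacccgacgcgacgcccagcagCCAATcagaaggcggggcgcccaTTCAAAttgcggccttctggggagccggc
ASPM: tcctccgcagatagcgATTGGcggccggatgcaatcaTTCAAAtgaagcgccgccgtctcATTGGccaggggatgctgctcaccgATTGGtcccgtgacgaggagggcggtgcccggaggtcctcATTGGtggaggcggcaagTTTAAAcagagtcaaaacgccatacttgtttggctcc
All 4 hold TTTGAA and CCAAT. In KIF14 they stand 1 time each, with the first base of CCAAT at -22 and that of the reverse TTTGAA at 2, counted from the start site. In HMMR 2 copies of TTTGAA follow each other directly, and a forward and a reverse CCAAT overlap.

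TTTGAA was searched on both strands from 250 bases before to 50 bases after the start site in the 22114 genes with exactly 1 such window in the RefSeq table, and 16% of them held it. It was found in 23 of the 33 G2 and M phase genes with 1 window (69.7%) and in 1 of 31 S phase genes (3.23%). CCAAT was found in 36.2% of all windows, in 72.7% of those of G2 and M phase genes and in 54.8% of those of S phase genes. Among the G2 and M phase genes, TTTGAA stood in 18 of 26 genes called higher in V71 and in 5 of 7 not called. These are matches of letters in a window, and binding was not measured.

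DLGAP5 was measured at 4.79 and 5.09 in the PLKO arrays and at 6.15 and 6.08 in the V71 arrays (difference 1.18, SE 0.12, adjusted p = 0.000515). HMMR stood at 3.56 and 3.74 against 4.84 and 4.69 (difference 1.12, SE 0.13, adjusted p = 0.00143). For KIF14 the values were 4.83 and 5.11 in PLKO and 6.08 and 6.03 in V71, a difference of 1.08. In all of them both V71 arrays were above both PLKO arrays by far more than the replicates differed. ASPM (5.43 and 5.73 against 6.71 and 6.60, difference 1.07) and KIF20A, a kinesin of cytokinesis (4.69 and 4.71 against 5.86 and 5.67, difference 1.06), had the same order. Further down the list came the regulators. FOXM1, the transcription factor of late cell cycle genes, stood 0.93 higher in V71, CCNB2 and CCNB1, the B cyclins, 0.97 and 0.74, PLK1, a mitotic kinase, 0.80, and AURKA, a kinase of the spindle, 0.73. The call of PLK1 is lost without PLKO DF array 1 or V71 DF array 1. MKI67, whose protein is the Ki-67 marker of cycling cells, stood at 6.03 and 6.22 in PLKO and at 6.98 and 6.95 in V71, a difference of 0.84 (SE 0.11, adjusted p = 0.00202).

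In NDF no gene of the G2 and M phase list was called between the lines, against 2.15% of all genes. At that share a list of 47 may well hold no call, so this count does not set the list apart. The median difference of the list in NDF was 0.15. For 11 of the 47 the difference in DF was called as larger than that in NDF, among them DLGAP5, HMMR, KIF14, ASPM, KIF20A, CENPE, CENPF and BUB1, against 1.09% of all genes called in that direction. Within each line the list was lower in DF than in NDF: 46 of 47 genes were called lower in PLKO (4.16% of all genes) and 45 in V71 (3.55%), with median changes of -2.01 and -1.44. The medians of the group means were thus 7.46 in PLKO and 7.66 in V71 in NDF, and 5.58 and 6.22 in DF. Without moderation of the variance 4 of the 31 genes are still called, and 25 to 32 are called when a single array is left out.

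S phase genes had the same direction with smaller sizes: 7 of 44 were higher in V71 (1.81% of all genes), none lower (1.26%), and the median difference was 0.43. TYMS, thymidylate synthase, stood at 6.98 and 7.04 in PLKO and 7.87 and 7.75 in V71 (difference 0.80, SE 0.09, adjusted p = 0.000799). RRM2, a subunit of ribonucleotide reductase, stood 0.72 higher, POLE2, a subunit of DNA polymerase epsilon, 0.69, and CDC6, which loads the replicative helicase, 0.64. The calls of RRM2, POLE2 and CDC6 are lost without PLKO DF array 1 or V71 DF array 1, and those of RRM2 and POLE2 also without V71 DF array 2. The count is 2 without V71 DF array 1, 3 without PLKO DF array 1, 11 without V71 DF array 2 and 2 without moderation. Of 45 replication-dependent histone genes 12 were higher in V71 (against 1.81% of all genes), none was lower, and the median difference was 0.49. In NDF 3 of the 45 were called higher (0.615% of all genes) and 2 lower (1.54%). H3C10, a histone H3 gene of chromosome 6, stood at 4.77 and 4.92 in PLKO and 6.39 in both V71 arrays (difference 1.55, SE 0.09, adjusted p = 1.59e-05). H2BC12, a histone H2B gene, stood at 5.52 and 5.68 against 6.82 and 6.91 (difference 1.26). It was also called higher in V71 in NDF, by 1.73, so its difference was there before differentiation. Histone genes of a class are near-identical copies and probes may be shared between them, and these messages lack a poly(A) tail, so single members are uncertain. The count is 4 without PLKO DF array 1, 5 without V71 DF array 1 and 1 without moderation.

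**Figure D2:**
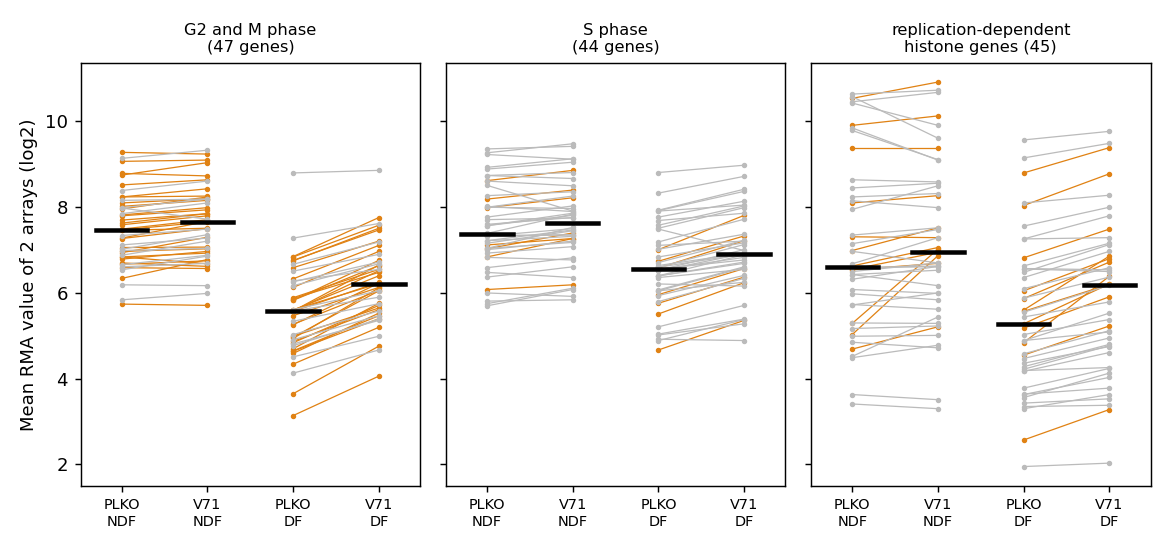
Mean RMA value of 2 arrays (log2, y axis) in the 4 groups for the genes of 3 lists. Each line joins a gene's PLKO and V71 means within NDF or within DF, orange where the gene was called between the lines in DF, and black bars are medians over the list; in the G2 and M phase list the medians are 7.46 and 7.66 in NDF and 5.58 and 6.22 in DF.

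The genes with the largest differences were no cell cycle genes. VCAN (chromosome 5) encodes versican, a hyaluronan-binding proteoglycan of the matrix. It stood at 7.60 and 7.72 in the PLKO arrays and at 4.70 and 4.62 in the V71 arrays, a difference of -3.00 (7.97-fold lower, SE 0.10, adjusted p = 2.43e-06). SULF2, an extracellular enzyme that removes sulfate groups from heparan sulfate, was 6.79 and 6.59 in PLKO and 4.40 and 4.51 in V71 (difference -2.23, SE 0.10, adjusted p = 5.56e-06). Both genes were far below PLKO in both V71 arrays. In NDF the differences of VCAN and SULF2 were -0.53 and -0.34 and not called (that of VCAN had an adjusted p of 0.0197 by limma but a fold of 1.45), and the difference between DF and NDF was called for both, at -2.46 and -1.89.

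Of the 29 analysed genes of matrix proteoglycans, tenascins and heparan sulfatases 7 were lower in V71 (against 1.26% of all genes), 1 was higher and 21 were not called, with a median difference of -0.09. In NDF 8 of the 29 were called lower (1.54% of all genes) and none higher. TNC and TNR are tenascins, large matrix glycoproteins that steer axons. TNC stood at 5.12 and 5.43 in PLKO and 4.01 and 3.64 in V71, and TNR at 8.49 and 8.53 against 7.05 and 7.27 (differences -1.45 and -1.35). MFAP4, a microfibril-associated protein, stood 1.40 on the log2 scale below PLKO (7.60 and 7.65 against 6.24 and 6.2). DCN, decorin, was 3.63 and 3.62 in PLKO and 2.41 and 2.35 in V71, below the lower quartile there. FSTL1, a secreted follistatin-like protein, was at -0.76. GPC3, a glypican, was the member higher in V71, at 4.18 and 4.36 against 4.91 and 4.97, and this call is lost without PLKO DF array 1 (highest adjusted p over all alternatives 0.0682). Of the 8 called genes only VCAN and SULF2 had a difference in DF that was called as lower than in NDF. The difference was called as higher in DF than in NDF for TNR, DCN and GPC3. DCN was below the lower quartile in V71 in both conditions (means 2.55 in NDF and 2.38 in DF), while its PLKO mean was 4.69 in NDF and 3.62 in DF, so the size of its difference has a floor on the V71 side in both.

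**Figure D3:**
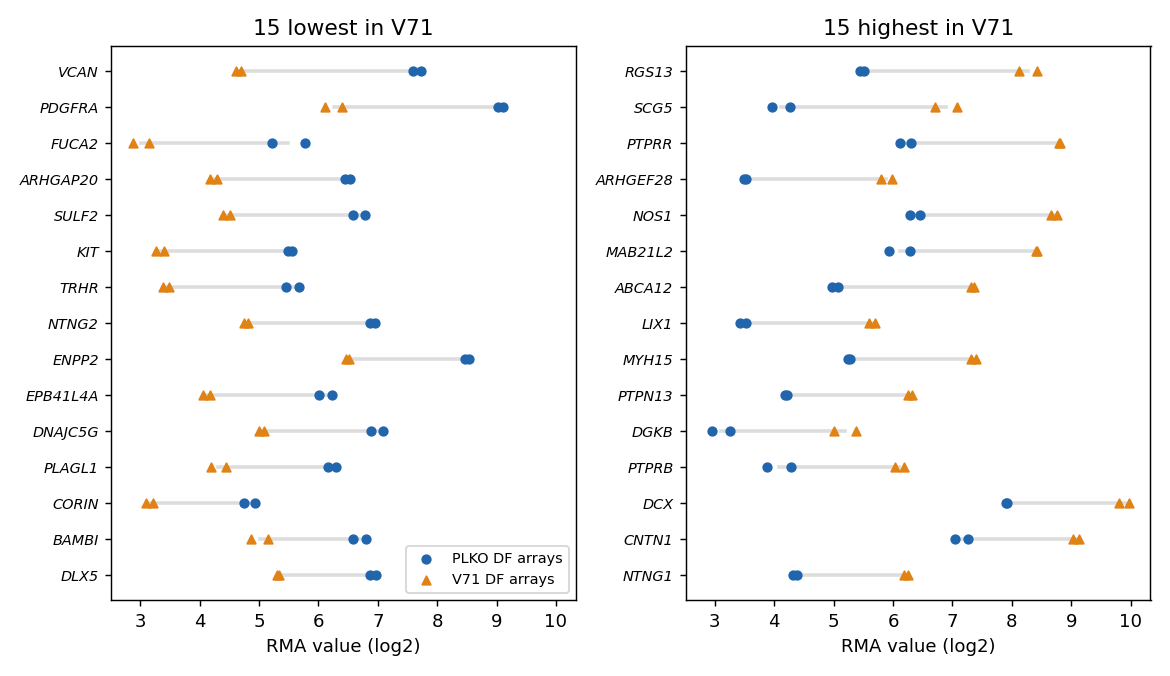
RMA values (log2, x axis) of the 15 genes lowest and the 15 highest in V71 in DF among the called genes. Blue circles are the 2 PLKO arrays, orange triangles the 2 V71 arrays and grey bars join the means. VCAN stood at 7.60 and 7.72 against 4.70 and 4.62. In every gene shown both arrays of a line lie on the same side, as they do in all 563 called genes.

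Receptor tyrosine kinases take growth factor signals into the cell. Of 36 analysed 4 were lower in V71 (1.26% of all genes), 1 was higher (1.81%) and 31 were not called (median -0.07). PDGFRA, the alpha receptor of platelet-derived growth factor, stood at 9.02 and 9.11 in PLKO and 6.11 and 6.40 in V71, a difference of -2.81 (SE 0.11, adjusted p = 4.39e-06). KIT, the receptor of stem cell factor, stood at 5.55 and 5.48 against 3.40 and 3.26 (difference -2.18, SE 0.10, adjusted p = 5.56e-06). In both the V71 arrays were low and clear of the PLKO arrays. EGFR (4.97 and 4.91 against 4.04 and 3.79) and MET, the receptor of hepatocyte growth factor (4.50 and 4.61 against 3.82 and 3.88), had smaller differences, -1.03 and -0.71. DDR2, a collagen receptor, was 0.64 higher, a call that is lost without PLKO DF array 1 or V71 DF array 1 and that its dimmer row did not share (0.34, adjusted p = 0.0823). PDGFRA, KIT, EGFR and MET were also lower in V71 in NDF, and for none of them was the difference between DF and NDF called.

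Tyrosine phosphatases oppose these kinases. Of 32 analysed 4 were higher in V71 (1.81% of all genes) and none was lower (1.26%). The median of the list was -0.01, so that the 4 stood apart from the other members. PTPRR, which dephosphorylates ERK, stood at 6.11 and 6.30 in PLKO and at 8.79 and 8.81 in V71 (difference 2.59, SE 0.12, adjusted p = 5.56e-06). PTPN13, a large cytoplasmic phosphatase, stood at 4.18 and 4.22 against 6.25 and 6.32 (difference 2.08). For PTPRB, a receptor phosphatase of the vascular lining, the values were 4.28 and 3.88 against 6.03 and 6.18 (difference 2.02). PTPRE stood at 4.83 and 4.87 in PLKO and 6.38 and 6.11 in V71 (difference 1.39). All 4 were above PLKO in both V71 arrays, as was every gene called higher, and they were called under each of the alternative settings. For PTPN13, PTPRB and PTPRE the difference was called as larger in DF than in NDF, where they were not called.

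Among 28 genes that report the output of the ERK pathway, 1 was higher (1.81% of all genes) and 2 were lower (1.26%) in V71 (median -0.01). ETV1, an ETS transcription factor, was 6.62 and 6.63 in PLKO and 8.49 and 8.50 in V71, a difference of 1.87 (SE 0.08, adjusted p = 4.39e-06), against 0.32 in NDF. IL17RD, an inhibitor of growth factor signaling also called SEF, stood at 8.61 and 8.66 against 7.93 and 7.91, and DUSP10, a phosphatase of stress-activated kinases, at 5.5 and 5.76 against 4.78 and 4.94. The call of DUSP10 is lost without V71 DF array 1.

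Guidance cues went both ways. Of 20 netrins, slits and their receptors 1 was higher (1.81% of all genes) and 2 were lower (1.26%) in V71, with a median of 0.06. The netrin-G proteins are netrins tethered to the membrane, and each binds its own partner on other neurons. NTNG1 stood at 4.31 and 4.39 in PLKO and at 6.19 and 6.26 in V71 (difference 1.88, SE 0.09, adjusted p = 8.45e-06). NTNG2 stood at 6.86 and 6.95 in PLKO and at 4.75 and 4.82 in V71 (difference -2.12, SE 0.09, adjusted p = 4.39e-06). The lines were thus ordered in opposite ways in these paralogs. NTNG1 was also called higher in NDF (1.64), while NTNG2 was not called there (-0.41). In NDF NTNG2 had an adjusted p of 0.0398 by limma but a fold of 1.33. For NTNG2 the difference between DF and NDF was called. SLIT1, a repellent of growing axons, stood at 7.03 and 7.14 against 6.13 and 6.29.

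Of 30 semaphorins, plexins and neuropilins 1 was higher (1.81% of all genes) and 2 were lower (1.26%), with a median of -0.03. SEMA5A, a transmembrane semaphorin, stood at 6.79 and 6.77 in PLKO and 5.42 and 5.35 in V71 (difference -1.40, SE 0.09, adjusted p = 3.2e-05), much as in NDF (-1.39). PLXNA2, a receptor subunit of the secreted semaphorins, was 6.49 and 6.61 against 5.63 and 5.55, and PLXNC1, the receptor of SEMA7A, was 4.43 and 4.35 against 5.36 and 5.5. SEMA3C, a secreted semaphorin, which differed by -3.01 in NDF, was not called in DF, at 5.81 and 5.82 against 5.54 and 5.41. Of 21 ephrins and ephrin receptors only EFNB2, a transmembrane ephrin, was called (3.06% of all genes). It stood at 6.59 and 6.69 in PLKO and 7.90 and 8.03 in V71 (difference 1.33, SE 0.09, adjusted p = 3.63e-05).

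Contactins and other adhesion molecules of the immunoglobulin family hold axons to each other and to glia. Of 24 analysed 7 were higher in V71 (1.81% of all genes), 2 were lower (1.26%) and 15 were not called (median 0.16). CNTN1, contactin 1, stood at 7.05 and 7.27 in PLKO and 9.03 and 9.13 in V71 (difference 1.92, SE 0.09, adjusted p = 8.45e-06). ALCAM, a homophilic adhesion molecule, stood at 8.02 and 8.14 against 9.57 and 9.50 (difference 1.45), and CNTNAP5, a contactin-associated protein, at 5.57 and 5.70 against 6.99 and 7.16 (difference 1.44). NCAM2 stood at 8.27 and 8.39 against 9.45 and 9.57 (difference 1.18). In each of the 4 the V71 arrays were high. CNTN4 was 0.95, L1CAM 0.66 and NEGR1 0.66 higher, and NRCAM and LSAMP were at -0.60 and -0.69. The calls of L1CAM, NEGR1 and NRCAM are each lost without a DF array. Leucine-rich repeat proteins of the neuronal surface gave 2 calls higher (1.81% of all genes) and 2 lower (1.26%) of 23. LRRN3 stood at 6.03 and 5.82 against 7.70 and 7.77 and SLITRK6 at 5.52 and 5.67 against 6.85 in both V71 arrays, while LRRN1 stood at 4.57 and 4.88 against 3.33 and 3.19 and LRRTM2 at 5.40 and 5.65 against 4.85 and 4.81, a call that is lost without PLKO DF array 2.

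The protocadherin beta genes lie side by side on chromosome 5 and encode homophilic adhesion molecules, of which each neuron makes its own set. All 16 analysed genes had a difference below 0, from -1.31 to -0.08, with a median of -0.62. Of these 8 were called lower in V71 (against 1.26% of all genes), none higher. PCDHB13 stood at 5.40 and 5.30 in PLKO and at 3.78 and 4.30 in V71 (difference -1.31, SE 0.15, adjusted p = 0.00129), and PCDHB11 at 5.82 and 5.97 against 4.85 in both V71 arrays (difference -1.05). PCDHB6 and PCDHB5 stood at -0.96 and -0.84, and PCDHB12, PCDHB2, PCDHB7 and PCDHB4 between -0.73 and -0.63. The V71 arrays of PCDHB13 lay apart from each other, yet both were below PLKO. In NDF the median was -0.28 and 1 gene was called. Within the lines 13 of the 16 were called higher in DF than in NDF in PLKO (2.88% of all genes) and 10 in V71 (3.98%; 7.53% of all genes were called there in either direction), with median changes of 1.10 and 0.70. Only PCDHB11 had a difference that was called between DF and NDF. The calls of PCDHB2 and PCDHB4 are lost without PLKO DF array 2, among others. These genes are close in sequence, so probes may be shared, and without moderation 1 of the 8 is called.

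Of 38 genes of the growth cone and neuronal cytoskeleton 4 were higher (1.81% of all genes) and 3 were lower (1.26%) in V71 (median 0.08). DCX, doublecortin, which binds microtubules in migrating neurons, stood at 7.92 and 7.90 in PLKO and 9.81 and 9.98 in V71 (difference 1.98, SE 0.09, adjusted p = 5.56e-06). GAP43, the growth-associated protein of the growth cone membrane, stood at 8.54 and 8.74 against 10.25 and 10.24 (difference 1.61, SE 0.09, adjusted p = 1.59e-05). CAP2, which acts on actin filaments, stood at 5.77 and 5.95 against 7.18 and 7.27 (difference 1.37). These were high in both V71 arrays, and for all of them the difference was called as larger than in NDF. PRPH, peripherin, an intermediate filament of peripheral neurons, was 4.56 in both PLKO arrays and 5.59 in both V71 arrays. The 3 lower genes bind microtubules or tubulin: MAPT, the tau protein, stood at 6.92 and 6.77 against 5.72 and 5.79, DCLK1, a doublecortin-like kinase, at 8.01 and 8.16 against 6.99 and 7.01, and STMN1, stathmin, at 8.75 and 9.02 against 8.04 and 7.95. DCX and its relative DCLK1 therefore differed between the lines in opposite directions. A dimmer row of STMN1 was not called (-0.37, adjusted p = 0.18). MYH15, a myosin heavy chain outside the list, stood at 5.24 and 5.27 in PLKO and at 7.32 and 7.40 in V71 (difference 2.10), against -0.06 in NDF.

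Genes of synaptic vesicle release were called in equal numbers both ways, 5 higher (1.81% of all genes) and 5 lower (1.26%) of 44, with a median of 0.05. STXBP5, tomosyn, which holds back the fusion machinery, stood at 7.52 and 7.84 in PLKO and 8.88 and 8.99 in V71 (difference 1.25, SE 0.11, adjusted p = 0.000263). RIMS1, a scaffold of the active zone, stood at 5.13 in both PLKO arrays and at 6.02 and 6.13 in V71, and SYT9, a calcium sensor, at 5.64 and 5.61 against 6.53 and 6.47. RAB3B and SNAP25, a small GTPase of vesicles and a fusion protein of the plasma membrane, were 0.84 and 0.65 higher, and the call of RAB3B is lost without V71 DF array 1. On the other side SLC30A3, which loads zinc into vesicles, stood at 6.81 and 6.90 in PLKO and 5.65 and 5.59 in V71 (difference -1.24, SE 0.08, adjusted p = 3.89e-05). SYT17, SLC6A17, SNAP91 and SV2C were at -0.78, -0.73, -0.71 and -0.69. For 9 of the 44 the difference was called between DF and NDF, 5 of them higher (1.09% of all genes) and 4 lower (0.305%). CADPS, which primes dense-core vesicles, was 2.09 higher in V71 in NDF and was not called in DF, at 7.44 and 7.45 against 7.18 and 7.16. Without moderation 1 of the 5 higher calls is left.

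Of 19 genes of secretory granules and peptide processing 3 were higher in V71 (1.81% of all genes) and none was lower (1.26%), with a median of -0.01. SCG5, the 7B2 chaperone of a prohormone convertase, stood at 3.96 and 4.27 in PLKO and 7.07 and 6.70 in V71 (difference 2.77, SE 0.14, adjusted p = 8.45e-06). CHGB, chromogranin B of the granule core, stood at 7.87 and 7.97 against 9.35 and 9.65 (difference 1.58). VIP, a neuropeptide, stood at 5.03 and 5.38 against 6.31 and 6.18. All were above PLKO in both V71 arrays, but the call of VIP is lost when any of the 4 DF arrays is left out (highest adjusted p over all alternatives 0.285).

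Transmitter receptors were mixed as well. Of 40 glutamate and GABA receptors and transporters 4 were higher (1.81% of all genes) and 5 lower (1.26%) in V71 (median 0.00). GRM8, a metabotropic glutamate receptor, stood at 4.47 and 4.21 in PLKO and 6.24 and 6.17 in V71 (difference 1.86, SE 0.10, adjusted p = 1.29e-05), and GABRA3, a GABA-A receptor subunit, at 5.0 and 5.35 against 6.75 and 6.76 (difference 1.58). GABRG3 and GRIA4 were 0.75 and 0.62 higher. GRIK4, a kainate receptor subunit, stood at 5.73 and 5.74 against 4.81 and 4.75, and SLC1A1, a neuronal glutamate transporter, at 5.93 and 6.2 against 5.15 and 5.07. GRIA3, SLC1A2 and GRIA2 were at -0.77, -0.68 and -0.67. The AMPA receptor subunits were thus split, GRIA2 and GRIA3 low and GRIA4 high in V71, although the call of GRIA4 is lost without V71 DF array 2. Of 20 cholinergic genes 2 were higher (1.81% of all genes) and 1 was lower (1.26%). CHRNA3 and CHRNB4, subunits of the ganglionic nicotinic receptor whose genes are neighbours on chromosome 15, stood at 8.24 and 8.30 against 9.13 and 9.06 and at 6.52 and 6.51 against 7.31 and 7.35. CHRNA7, the subunit of the homomeric nicotinic receptor, stood at 7.56 and 8.0 in PLKO and 6.55 and 6.70 in V71 (difference -1.16).

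Among 39 calcium channels, stores and exchangers 1 gene was higher (1.81% of all genes) and 3 were lower (1.26%) in V71 (median 0.03). SLC8A1, a sodium-calcium exchanger, stood at 5.53 and 5.70 in PLKO and 7.44 and 7.47 in V71 (difference 1.84, SE 0.10, adjusted p = 1.19e-05). SLC8A3, of the same family, stood at 6.69 and 6.81 in PLKO and 6.04 and 6.01 in V71 (difference -0.73). Again paralogs were ordered in opposite ways. RYR2, a release channel of the internal store, stood at 4.78 and 4.83 against 3.42 and 3.29 (difference -1.45), and CACNA1C, the pore of an L-type channel, at 6.74 and 6.77 against 6.19 and 6.10, a call that is lost without V71 DF array 2 and that its dimmer row did not share (-0.48, adjusted p = 0.0858). Of 29 genes of calmodulin, its kinases and neuronal calcium sensors 2 were higher (1.81% of all genes) and none was lower (1.26%). VSNL1, a calcium sensor, stood at 3.79 and 3.94 against 5.61 and 5.53 (difference 1.71), and CAMK4, a calmodulin-dependent kinase, at 6.61 and 6.63 against 7.34 and 7.36 (difference 0.73). CALM3, which the study discusses, was not analysed here. Of 50 potassium channels and their auxiliary subunits 3 were higher (1.81% of all genes) and 4 lower (1.26%). DPP6 and DPP10 encode auxiliary subunits of the same Kv4 channels. DPP6 stood at 6.56 and 6.59 against 7.77 and 7.76 (difference 1.20), DPP10 at 6.55 and 6.58 against 5.02 and 4.98 (difference -1.56), and the lines were ordered in opposite ways in them. KCNIP4, another Kv4 partner, was 0.76 higher, KCNQ5 0.67 higher, and KCNK9, KCNQ3 and KCNH1 were at -0.73, -0.73 and -0.72. The call of KCNQ3 is lost without PLKO DF array 1 or V71 DF array 2.

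Nitric oxide raises cyclic GMP, and phosphodiesterases break cyclic nucleotides down. Of 39 analysed genes of these pathways 4 were higher (1.81% of all genes) and 2 were lower (1.26%) in V71 (median -0.01). NOS1, the neuronal nitric oxide synthase, stood at 6.29 and 6.45 in PLKO and 8.76 and 8.66 in V71 (difference 2.34, SE 0.15, adjusted p = 3.09e-05), against -0.23 in NDF. PDE5A, which hydrolyses cyclic GMP, stood at 3.17 and 3.22, near the lower quartile, in PLKO and at 4.92 and 5.14 in V71 (difference 1.83). In both the V71 arrays were far above PLKO. PDE10A stood at 5.30 and 5.32 against 6.37 and 6.47 and NOS1AP, an adaptor of NOS1, 0.60 higher, a call that is lost without PLKO DF array 2 or V71 DF array 1. PDE8B and GUCY1B1, the latter a subunit of the guanylyl cyclase that nitric oxide activates, were at -0.73 and -0.69. RGS13, which ends the signal of G proteins, had the largest difference of all genes upward, at 5.44 and 5.51 in PLKO and 8.43 and 8.12 in V71 (2.80, 6.97-fold higher, SE 0.15, adjusted p = 1.02e-05), against 0.25 in NDF, where its PLKO mean of 2.97 was below the lower quartile. DGKB, a kinase of diacylglycerol, stood at 2.95 and 3.26 against 5.0 and 5.37.

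Among 25 genes of phosphoinositide 3-kinase and its regulators 3 were higher (1.81% of all genes) and 1 was lower (1.26%). SESN3, a sestrin, stood at 8.10 and 8.06 in PLKO and 9.49 and 9.57 in V71 (difference 1.45). The regulatory subunits PIK3R1 (7.70 and 7.79 against 6.92 and 7.0) and PIK3R3 (6.29 and 6.31 against 7.0 and 6.92) differed in opposite directions, at -0.78 and 0.65. SGK1, a kinase downstream of the pathway, was 5.82 and 5.98 against 6.60 and 6.46, a call that is lost without PLKO DF array 1 or V71 DF array 1.

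Of 27 genes of sterol synthesis and lipoprotein receptors 6 were higher in V71 (1.81% of all genes), none was lower (1.26%), and the median was 0.39. ABCA12, a lipid transporter, stood at 5.08 and 4.98 in PLKO and 7.31 and 7.36 in V71 (difference 2.30, SE 0.09, adjusted p = 4.39e-06), far from the rest of the list. VLDLR, a lipoprotein receptor that also binds reelin, stood at 7.13 and 7.17 against 8.08 and 7.99, STARD4, a sterol carrier, was 0.71 higher and CYP7B1, an oxysterol hydroxylase, 0.67. HMGCS1 and MSMO1, enzymes of the synthesis itself, were 0.65 and 0.63 higher, and both calls are lost without PLKO DF array 1, V71 DF array 1 or V71 DF array 2. Without moderation 3 of the 6 are called.

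In 41 lysosomal enzymes and their sorting receptors 2 were higher (1.81% of all genes) and 3 lower (1.26%). FUCA2, a fucosidase, stood at 5.21 and 5.78 in PLKO and at 2.87 and 3.15 in V71, a difference of -2.48 (SE 0.17, adjusted p = 4.14e-05), with its V71 mean below the lower quartile. In NDF it was called lower in V71 as well (-3.13), again with its V71 mean below the lower quartile. GM2A, the activator protein of ganglioside breakdown, stood at -0.92, M6PR, a mannose 6-phosphate receptor, at -0.65, NPC2, a cholesterol carrier, at 0.65 and SORCS1, a sorting receptor, at 1.32 (6.81 in both PLKO arrays, 8.12 and 8.13 in V71). The call of NPC2 is lost without PLKO DF array 1. Of 18 genes of the APP family and its secretases 1 was called (3.06% of all genes), APP itself. It stood at 10.69 and 10.73 in PLKO and 10.05 and 10.09 in V71 (difference -0.64, SE 0.08, adjusted p = 0.00199). Among 38 polypeptide GalNAc transferases and sialyltransferases 2 were higher (1.81% of all genes) and 3 lower (1.26%). GALNT13, a transferase of neurons, stood at 6.32 and 6.47 against 4.96 and 4.92 (difference -1.45), GALNT16 at -0.67 and GALNT18 at -0.61 (4.30 and 4.23 against 3.68 and 3.62). ST6GALNAC5 and ST6GALNAC3, sialyltransferases, were 0.99 and 0.65 higher. The calls of GALNT16 and GALNT18 are each lost without 1 or another of the DF arrays.

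Genes that handle the inducer retinoic acid were mostly not called, 24 of 26, with 1 higher (1.81% of all genes) and 1 lower (1.26%). CRABP2, which carries retinoic acid to its receptors, stood at 6.69 and 6.95 in PLKO and 8.29 and 8.25 in V71 (difference 1.45, SE 0.11, adjusted p = 7.33e-05). DHRS3, which turns retinaldehyde back to retinol, stood at 6.96 and 7.09 in PLKO and 5.83 and 5.89 in V71 (difference -1.17, SE 0.09, adjusted p = 0.000101). The arrays of each line lay together in both, and in both the difference was called against NDF. Of 35 genes of TGF-beta and BMP signaling 2 were higher (1.81% of all genes) and 3 lower (1.26%). ID2, an inhibitor of basic helix-loop-helix factors, stood at 2.96 and 3.39 against 4.94 and 4.79 (difference 1.69) and BAMBI, a decoy receptor, at 6.58 and 6.80 against 5.15 and 4.87 (difference -1.68). BMP7 and INHBA, ligands, were at -0.86 and -0.71 and SMAD1, a signal transducer, at 0.65, and each of these calls is lost when 1 of 2 or 3 DF arrays is left out. Among 38 Wnt receptors, inhibitors and targets 4 were higher (1.81% of all genes) and 1 was lower (1.26%). FRZB and SFRP1, secreted inhibitors of Wnt ligands, stood at 4.92 and 4.58 against 6.42 and 6.59 and at 6.39 and 6.46 against 7.54 and 7.45, and LGR5, the R-spondin receptor, at 8.98 and 9.17 against 10.02 and 10.17. TLE4 and TLE3, corepressors of one family, differed by 0.96 and -0.77.

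Some lists had no call, or a share called near that of all genes or not far above it. Of 10 Elongator subunits and partners none was called, with differences from -0.36 to 0.26, and of 23 p53 targets none was called, with differences from -0.50 to 0.39. By limma 3.06% of all genes were called. At that share lists of 10 and 23 genes may well hold no call, so these counts do not set them apart. The interferon response gave 1 call of 29 (3.45%), HERC6 (3.45 and 3.59 against 4.30 and 4.21). The amino acid and unfolded protein stress response gave 2 of 31 (6.45%), VLDLR and BCAT1, an enzyme of branched-chain amino acids (6.28 and 6.32 against 7.16 and 7.33).

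**Figure D4:**
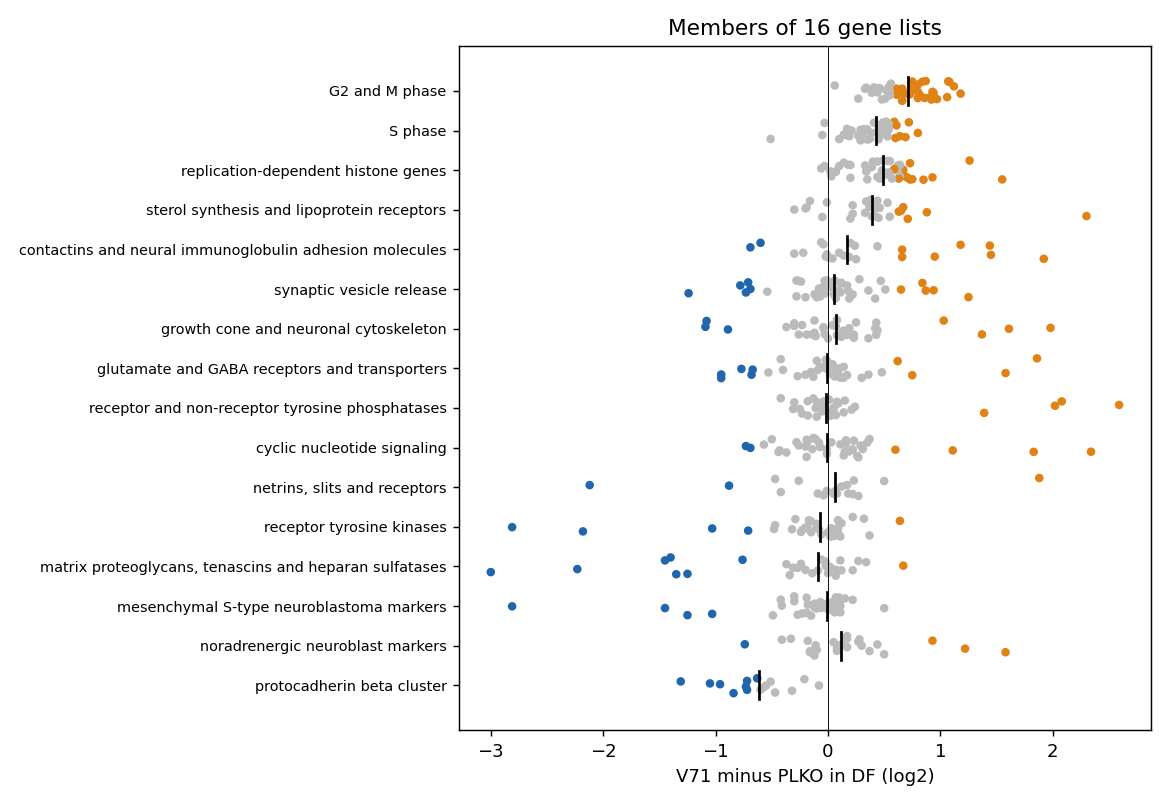
Difference between the lines in DF (V71 minus PLKO, log2, x axis) for the members of 16 gene lists (y axis). Each point is a gene, orange where called higher in V71, blue where called lower and grey where not called, and black bars are medians; the G2 and M phase list (median 0.71) and the protocadherin beta cluster (median -0.62) are shifted as a whole, while in most other lists single members stand apart from a median near 0.

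Among the remaining genes of the 15 lowest and 15 highest, ARHGEF28 stood at 3.49 and 3.52 in PLKO and 5.98 and 5.80 in V71 (difference 2.39, SE 0.15, adjusted p = 3.09e-05), and was 1.88 higher in V71 in NDF. ARHGAP20 stood at 6.44 and 6.54 against 4.29 and 4.17 (difference -2.26, SE 0.10, adjusted p = 5.56e-06), with a difference of 0.00 in NDF. In both the arrays of each line lay together, far from those of the other line. TRHR, the receptor of thyrotropin-releasing hormone, stood at 5.67 and 5.46 in PLKO and 3.38 and 3.49 in V71. ENPP2, autotaxin, which makes lysophosphatidic acid, stood at 8.47 and 8.53 against 6.52 and 6.46, and EPB41L4A, a FERM domain protein, at 6.01 and 6.23 against 4.06 and 4.17. In these the V71 arrays were about 2 log2 units lower (differences -2.13, -2.01 and -2.0). TRHR, ENPP2 and EPB41L4A were also called lower in V71 in NDF, at -1.41, -2.73 and -2.18. DNAJC5G, of the cysteine string protein family, differed by -1.93, PLAGL1, a zinc finger protein, by -1.92, CORIN, a protease that activates a natriuretic peptide, by -1.69 and DLX5, a homeobox factor, by -1.59. In NDF DNAJC5G (-0.77), PLAGL1 (-1.44) and DLX5 (-1.75) were called lower too, and CORIN (-0.21) was not called. On the other side MAB21L2 stood at 5.93 and 6.29 in PLKO and 8.43 and 8.41 in V71 (difference 2.31), and LIX1 at 3.43 and 3.53 against 5.70 and 5.59 (difference 2.17). MAB21L2 was also called higher in NDF (2.16), and LIX1 was not called there (-0.23).

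How many of these differences were already there before differentiation was asked with the NDF arrays. The differences in DF and NDF share no array. Their p-values share the spread pooled over the 4 groups, so the calls of both comparisons are not independent. In NDF 396 genes were called (2.15%), 113 higher and 283 lower in V71. Both comparisons called 165 genes in the same direction, 63 higher and 102 lower, which is 29.3% of the DF calls and 41.7% of the NDF calls. Of the 563 genes 386 were called in DF and not in NDF, 257 higher and 129 lower. A call in DF alone does not show that the difference changed. The test of the difference itself, the difference in DF minus that in NDF, called 256 genes (1.39%), 200 higher (1.09%) and 56 lower (0.305%), and these include 105 of the 386. In all, 134 of the 563 genes called in DF were also called in that test, which uses the same DF arrays.

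The genes with the strongest such change upward were PDE5A (2.92), SEMA3C (2.67), NOS1 (2.58), RGS13 (2.55), SGK1 (2.5), PDE3A (2.39), LIX1 (2.39) and MYH15 (2.16). For SEMA3C and PDE3A the lines differed in NDF, by -3.01 and -2.53, and neither was called in DF. PDE3A was below the lower quartile in both lines in DF, and so was RERG, named next. Downward the strongest were VCAN (-2.46), CADPS (-2.36), ARHGAP20 (-2.26), RERG (-2.16), EDIL3 (-2.01), CNTNAP4 (-1.97), SULF2 (-1.89) and NTNG2 (-1.71). CADPS, RERG, EDIL3 and CNTNAP4 were higher in V71 in NDF and were not called in DF. VCAN, ARHGAP20, SULF2 and NTNG2 were called in DF and not in NDF, where VCAN and NTNG2 missed the call by the fold alone.

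Opposite directions in both conditions were called for 12 genes, all of them lower in V71 in NDF and higher in DF. PDE5A went from -1.08 to 1.83, CNTNAP5 from -0.63 to 1.44, EFNB2 from -0.69 to 1.33 and RTL1, an imprinted retrotransposon-derived gene, from -1.01 to 0.88. PI15, a peptidase inhibitor, went from -0.79 to 0.88, MAN1A1, a Golgi mannosidase, from -0.59 to 0.80, PLK2, a polo-like kinase, from -0.79 to 0.70 and GPC3 from -1.18 to 0.67. SGK1 went from -1.86 to 0.63, RUNX1T1, a corepressor, from -0.95 to 0.60, TMEM229A from -1.05 to 0.59 and PLS3, plastin 3, which bundles actin, from -0.83 to 0.59. The DF calls of GPC3, PI15, PLS3, RUNX1T1, SGK1 and TMEM229A are each lost when 1 or another of the DF arrays is left out, while those of PDE5A, CNTNAP5, EFNB2, RTL1, MAN1A1 and PLK2 are not.

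**Figure D5:**
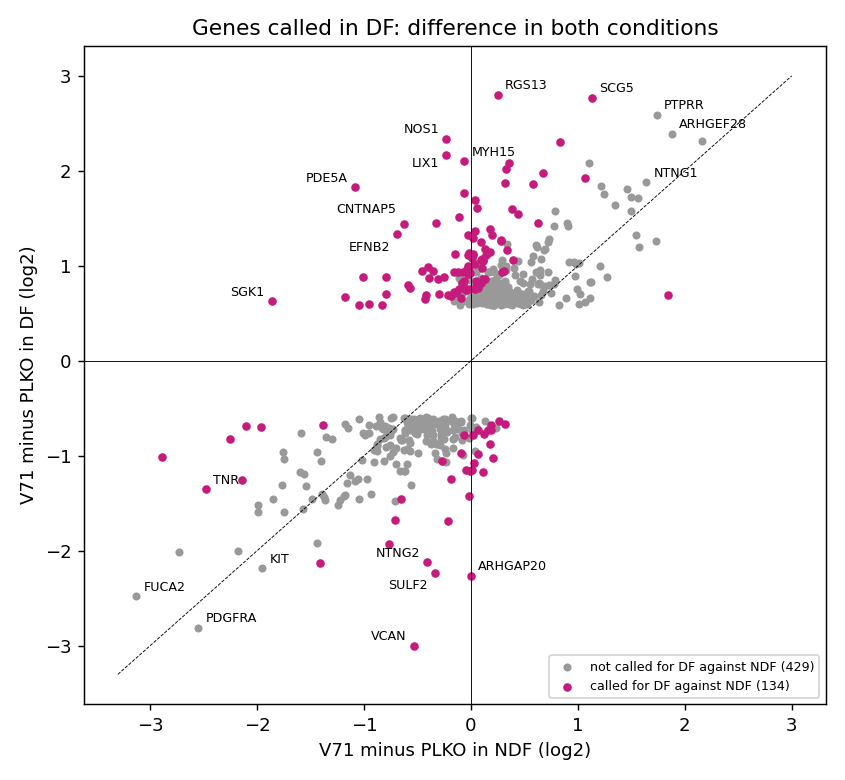
Difference between the lines (V71 minus PLKO, log2) in DF (y axis) against that in NDF (x axis) for the 563 genes called in DF. Magenta points are the 134 genes for which the difference between DF and NDF was called, grey points the others, and the dashed line marks equal differences. PDGFRA, KIT and NTNG1 lie near it, while NOS1, RGS13 and ARHGAP20 lie near 0 in NDF and VCAN lies at -0.53.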

How the data were processed

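Log2 values of the 8 arrays were deposited as 1 table. Per the submitters' processing notes the authors made them by RMA in Partek 6.5, which corrects background, normalizes quantiles and summarizes probes, so that folds may be compressed at low levels. The genome build of the array annotation was not given in the sources used here. Rows with several genes (1752) or none (7807) were left out of the text, and 19279 of the 19310 single-gene rows matched the RefSeq table. Where a gene had several rows (685 genes), its brightest row, by the mean of all 8 arrays, was used. Groups were taken from the titles. Differences were tested with limma 3.58.1 in R 4.3.3 (lmFit, eBayes, 4 group means over 8 arrays, Benjamini-Hochberg over all rows), as contrasts within DF, within NDF and between both differences. Calls needed a fold of at least 1.5 with an adjusted p under 0.05. Detection calls were not used. With 2 arrays a group, p-values rest on the spread between replicate arrays, pooled over the 4 groups. That spread has 4 residual degrees of freedom, which limit the precision, and is moderated by a prior from all rows (5.43 degrees of freedom). The p-values do not measure how lines made anew would vary. The code was tested on simulated data.

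Members and gene lists were chosen with earlier results of these data known. Named by rule were the 15 highest and 15 lowest genes called in DF, up to 4 called genes with the largest differences from each list, the 8 highest and 8 lowest genes of the test of DF against NDF, the genes that the study discusses for DF, and RPS9. Other called list members, genes called in opposite directions, cell type markers that were not called and the genes under other observations were named after their values were seen. Alternatives were other normalizations, variance priors, filters, thresholds, arrays left out and a replicate block. Promoter windows are RefSeq's (GRCh38.p14). Figures were drawn with matplotlib 3.10.9 and pandas 2.3.3 in Python 3.11.15.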

Additional observations from a re-analysis of the deposited data

Results flagged for a closer look

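For 92 of the genes named in the text and called in DF, limma called the difference between the lines in DF minus that in NDF (adjusted p under 0.05, fold of at least 1.5), so that the lines differed by unequal amounts in both conditions. The value was above 0 for 70 genes and below 0 for 22. All values are log2 and the same DF arrays enter both tests. Changes of at least 1.5 upward were measured for PDE5A 2.92, NOS1 2.58, RGS13 2.55, SGK1 2.5, LIX1 2.39, MYH15 2.16, CNTNAP5 2.08, EFNB2 2.02, RTL1 1.89, GPC3 1.85, TSPAN8 1.83, CRABP2 1.78, PTPN13 1.72, PTPRB 1.69, PI15 1.68, ID2 1.65, SCG5 1.64, TMEM229A 1.64, LRRC7 1.63, ETV1 1.55, GAP43 1.55 and RUNX1T1 1.54. Smaller ones above or at 1 were PLK2 1.49, ABCA12 1.47, CDH11 1.42, PLS3 1.42, MAN1A1 1.39, NFIA 1.39, SORCS1 1.35, CAP2 1.32, DCX 1.31, CNTN4 1.30, GRM8 1.28, HEY1 1.27, HMMR 1.27, SYT9 1.26, CLMN 1.22, PTPRE 1.21, ARHGAP28 1.18, STXBP5 1.17, TNR 1.13, H3C10 1.11, RIMS1 1.10, SNAP25 1.08, KIF14 1.07, DLGAP5 1.05, ST6GALNAC5 1.01 and ELAVL2 1.0. Below 1 stood ASPM 0.98, SFRP1 0.98, SLITRK6 0.98, PDE10A 0.97, CENPE 0.94, CENPF 0.94, FERMT2 0.94, ITGA6 0.91, DCN 0.90, HOXC5 0.90, ZEB2 0.88, CNTN1 0.85, ALCAM 0.82, PRC1 0.80, NDC80 0.78, BUB1 0.75, SPC25 0.75, KCNIP4 0.72, DOCK9 0.70, KIF20A 0.67, MYCN 0.65 and BCAT1 0.64.

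Downward, the values were PIK3R1 -0.72, TRHR -0.72, PCDHB11 -0.78, SLC6A17 -0.80, RYR2 -0.81, SYT17 -0.81, SLC1A2 -0.88, TLE3 -0.89, SLC8A3 -0.91, BAMBI -0.97, GRIA2 -0.99, SLC30A3 -1.05, DCLK1 -1.11, CHRNA7 -1.15, DNAJC5G -1.16, H4C6 -1.16, DHRS3 -1.28, CORIN -1.47, NTNG2 -1.71, SULF2 -1.89, ARHGAP20 -2.26 and VCAN -2.46. In 5 of these genes a mean lay below the lower quartile, so that background may set the size of the change. These were RGS13 in PLKO in NDF (2.97), KCNIP4 in both lines in NDF (2.90 and 2.95), TSPAN8 and LRRC7 in both lines in NDF and in PLKO in DF, and DCN in V71 in both conditions. No explanation was tested for any of them.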

How the results depend on the processing

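The alternatives were followed for 248 genes called in DF, which comprise every called member of the lists and further genes chosen after their values were seen, and not all of them are named in the text. Of these 72 were called under every alternative and 104 under every one except a fold of at least 2, and none reversed. Without moderation of the variance (the plain linear model of the methods) the DF comparison called 166 genes in place of 563, 93 higher and 73 lower, and the test of DF against NDF called 3 in place of 256. A fold of at least 2 gave 152 (86 higher, 66 lower) and 133, and an adjusted p under 0.01 gave 125 in the test of DF against NDF. Leaving out a single array gave 485 to 606 DF calls, 267 to 390 higher and 207 to 259 lower, and 120 to 230 in the test of DF against NDF. There the count was 120 without PLKO NDF array 3, 130 without PLKO NDF array 2, 138 without V71 DF array 1, 147 without PLKO DF array 1, 163 without V71 NDF array 2 and 162 without V71 NDF array 3. In a fit with 1 array of a group left, that array is assumed to vary like the other groups. Nothing in the labels says that equal replicate numbers pair the arrays, and deviations of same-numbered arrays correlated at 0.188 in DF and -0.176 in NDF. With the replicate number as a block 564 genes were called in DF (332 higher, 232 lower) and 190 in the test of DF against NDF. The crossed pairing in NDF, chosen after seeing the data, gave 570 and 214. The cause of these changes was not tested. With 2 arrays a group, small differences could not be called, and near the lower quartile background limits the size of a difference.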

Other observations

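Genes outside the lists were read for further groups, and were named after their values were seen. PFKP, a phosphofructokinase, and HK2, a hexokinase, both of glycolysis, were lower in V71 in DF, at 7.66 and 7.71 in PLKO against 6.16 in both V71 arrays and at 6.59 and 6.71 against 5.53 and 5.29 (differences -1.52 and -1.24). SLC2A1, a glucose transporter, stood at -0.60, a call that is lost without PLKO DF array 2 or V71 DF array 1. RPL22, a ribosomal protein gene, stood at 5.82 and 5.70 against 4.74 and 5.09 (difference -0.85), and its paralog RPL22L1 at 3.60 and 3.77 against 4.97 and 4.96 (difference 1.28). BDNF, the message of the factor that was added to the medium, stood at 3.22 and 3.53 in PLKO and at 4.29 and 4.26 in V71 (difference 0.90, SE 0.11, limma adjusted p = 0.00169). GFRA2, the receptor of neurturin, stood at 5.57 and 5.58 against 4.73 and 3.83, with V71 arrays far apart, and its call is lost without PLKO DF array 1 or 2.

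Single adhesion genes were called as well, chosen from no list and described one by one. Of integrin subunits, ITGB8 was 1.23 and ITGA6 0.69 higher in V71, while ITGA9 stood at -0.76. FERMT2, a kindlin that activates integrins, stood at 7.38 and 7.57 in PLKO and 8.53 in both V71 arrays (difference 1.05), LAMC1, a laminin chain, was 0.65 higher and NID1, nidogen, at -0.76. The calls of ITGA6 and NID1 are lost without PLKO DF array 1. CDH2 and CDH11, classical cadherins, differed by 0.65 and -0.69. Transcription factors higher in V71 were DACH1 (6.11 and 6.08 against 7.72 and 7.91), HEY1 (5.43 and 5.72 against 6.93 and 6.81), LMO4 (1.10), NFIA (0.99), ZEB2 (0.98, though a dimmer row gave 0.54 with an adjusted p of 0.0512 by limma), BCL11A (0.85) and HOXC5 (0.84), and HOXD10 stood at -1.09. NRXN3, a presynaptic neurexin, was at -0.99, and ELAVL2, a neuronal RNA-binding protein, 0.93 higher.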
